A study of Mus musculus with 4 samples.

Results

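The chaperones examined here are the heat shock protein families Hspa, Hspb, Hsph, Hspd, Hspe and Hsp90 with the lens crystallin Cryab, the J-domain co-chaperones Dnaja, Dnajb and Dnajc, and the subunits Cct2 to Cct8 of the cytosolic chaperonin. Members were chosen by symbol: every probe set with exactly 1 gene symbol that belongs to one of these families was taken, which gave 198 probe sets of 45101 and 80 genes of 18194. Each gene is described by its probe set with the highest mean, and levels are log2 intensities. Total RNA of the whole hippocampus, taken from the left side of wild-type mice, was hybridised to 4 arrays, which the labels number 11, 13, 15 and 17. The series' design text calls them biological replicates, and they form a single group, so no treatment, strain or age is compared. Strain, age and sex are not given in the sources at hand, nor is whether each sample was 1 mouse. Hsp90ab1, the constitutive cytosolic Hsp90, and Dnajc19 were not analysed here.

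Chaperones bind unfolded or newly made proteins and keep them from clumping. The Hsp70 proteins (Hspa) hold and release their clients in a cycle of ATP hydrolysis that J-domain proteins start and Hsp110 proteins such as Hsph1 help to reset, while Hsp90, the chaperonins and the small heat shock proteins act on other folding states. Some members are made at all times, and neurons, which do not divide and carry long axons, rely on them at synapses; others are switched on by the heat shock factor Hsf1 when proteins misfold, or by the unfolded protein response when the load in the endoplasmic reticulum (ER) is high. The members were therefore sorted into 8 heat-inducible genes, 18 measured constitutive cytosolic genes, 8 genes of the ER, 7 measured mitochondrial genes and the remainder. The split is not clean, since Hspa8, Dnaja1, Hspd1 and Hspe1, abundant and also heat-responsive, were kept in the constitutive or mitochondrial class.

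The promoters of a few members show the sequences through which these responses are known to run. RefSeq promoter windows of 300 bases (build GRCm38.p6), 250 before and 50 after the start of transcription, were at hand for 65 of the 80 members. Heat shock factor binds inverted repeats of GAA and TTC. A 3-unit element, GAANNTTC followed by any 2 bases and a further GAA, searched on both strands, was found in the windows of 4 members, Hsph1, Hspd1, Hspe1 and Dnajb6, or 6.15% of members with a window, against 0.662% of all 27025 genes with one. Its first 2 units alone, GAANNTTC, which the longer element contains, were found for 16 members (24.6%), against 9.04% of all genes. The ER stress response element, CCAAT and CCACG with any 9 bases between them, was found on either strand for 3 members, Hspa5, Hsp90b1 and Dnajc3 (4.62%), against 0.137% of all genes. The stretches below are shown because they belong to members described in the results; matches to these elements are in capitals and the rest is in lower case.
Hspa1b, chr17:34959275-34959402, minus strand: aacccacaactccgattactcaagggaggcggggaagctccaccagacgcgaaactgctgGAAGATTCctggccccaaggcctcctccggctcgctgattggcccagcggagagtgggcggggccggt
Hspb1, chr5:135887772-135887859, plus strand: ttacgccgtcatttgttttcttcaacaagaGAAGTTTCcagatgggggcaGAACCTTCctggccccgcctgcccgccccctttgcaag
Hspe1, chr1:55088029-55088106, plus strand: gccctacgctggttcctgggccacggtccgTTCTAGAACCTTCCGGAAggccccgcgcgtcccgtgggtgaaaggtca
Dnajb6, chr5:29735822-29735894, plus strand: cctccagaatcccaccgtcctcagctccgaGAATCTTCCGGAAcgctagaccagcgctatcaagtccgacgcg
Hspa5, chr2:34771995-34772073, plus strand: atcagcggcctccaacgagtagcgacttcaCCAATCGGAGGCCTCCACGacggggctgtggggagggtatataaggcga
Dnajc3, chr14:118937797-118937875, plus strand: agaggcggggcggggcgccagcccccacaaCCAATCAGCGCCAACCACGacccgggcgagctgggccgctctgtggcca
The Hspe1 stretch holds 2 overlapping matches and lies between Hspe1 and its neighbour Hspd1, which is read the other way; 285 of the 300 bases of the Hspe1 window are shared with a window of Hspd1. The match of Hsph1 lies past its start and is not printed. Upstream of the start, Hspa1b and its neighbour Hspa1a differ at 3 of 250 bases, and the stretch shown for Hspa1b reads the same in Hspa1a. A match is a description of letters and not of binding.

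Most chaperone genes were detected in the hippocampus. Background was set at a log2 intensity of 6.45, the 95th percentile over the means of 42 genes that mark organs other than brain, such as sperm protamines, liver plasma proteins and skin keratins. By this limit 59 of the 80 members (73.8%) were above background, against 44.2% of all genes. The member just inside was Hspb8 with a mean of 6.46 and the member with the highest mean outside was Dnajc1 with 6.23. A probe set's signal also reflects how well its probes bind, so genes are not ordered by level here, and a level under background does not show absence.

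All 18 measured constitutive cytosolic members were above background. Hspa8, the constitutive cytosolic Hsp70, had levels of 11.83, 11.87, 11.74 and 11.81 in samples 11, 13, 15 and 17. Its relative Hspa2, best known from male germ cells and also made in brain, had 8.78, 8.97, 8.98 and 9.17. By this probe set Hspa8 was nearly even over the samples, and Hspa2 was lowest in sample 11 and highest in sample 17. The dimmest Hspa8 probe set above background was uneven, with 6.17, 6.61, 6.63 and 7.18. Hspa14, which works at the ribosome, had 7.496, 7.496, 7.491 and 7.65, so sample 17 was apart. Dnajc5, the cysteine string protein that with Hspa8 protects SNARE proteins on synaptic vesicles, averaged 10.15 ± 0.084, and Dnajc6, the neuronal auxilin that recruits Hspa8 to uncoat clathrin vesicles, averaged 10.30 ± 0.057 (SD, n = 4). Dnajb2 and Dnajb6, which keep aggregation-prone proteins soluble, had means of 8.64 ± 0.13 and 10.22 ± 0.031.

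The chaperonin subunits, which form the double ring that folds actin and tubulin, were detected for 7 of 8 measured genes. Cct2, Cct3, Cct4, Cct5, Cct6a, Cct7 and Cct8 had means between 9.35 for Cct8 and 10.23 for Cct2. Cct6b, a form of testis, was under background with a mean of 3.59. Cct3 had 9.996, 10.02, 10.01 and 10.06 in samples 11, 13, 15 and 17, and Cct6a had 10.05, 10.08, 9.99 and 10.05. By their brightest probe sets both were among the 5 steadiest members, with Hspa12a (SD 0.023), Dnajb12 and Dnajb6. Dnajb12, anchored in the ER membrane, had 7.43, 7.43, 7.47 and 7.48, and Dnajb6 had 10.20, 10.19, 10.23 and 10.26. Another probe set of Cct3 above background had 7.53, 7.52, 6.91 and 6.35, and its SD of 0.568 was the largest among the member probe sets above background, so the evenness holds for the brightest probe set and not for all. The second probe set of Cct6a, of nearly the same mean (10.03), had 9.91, 9.99, 10.06 and 10.16.

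Of the 8 heat-inducible genes, 7 were above background. Hspa1b, the inducible cytosolic Hsp70, had levels of 7.89, 8.58, 8.27 and 8.46 in samples 11, 13, 15 and 17, a 1.61-fold span. Its near-identical neighbour Hspa1a was under background at 5.36, 6.01, 5.74 and 5.85, with the same order of samples. Transcripts of the pair are hard to tell apart by hybridisation, so the share of each is uncertain. Cryab, the small heat shock protein alpha-B-crystallin, had 7.87, 8.99, 8.41 and 8.39, a 2.17-fold span between samples 13 and 11. Hsph1, the Hsp110 exchange factor of Hsp70, had 10.48, 10.66, 10.39 and 10.55. For Hspa1b, Cryab and Hsph1 sample 13 was the highest. Dnajb1, the J-domain partner of inducible Hsp70, had 8.54, 8.82, 8.55 and 8.76. Hspb1, the small heat shock protein Hsp27 of the human nomenclature (Hsp25 in mouse), had 8.11, 8.19, 8.11 and 7.93. Both were again highest in sample 13. Hsp90aa1, the inducible cytosolic Hsp90, had 10.79, 10.76, 10.59 and 10.76, and Dnajb4 had 8.76, 8.76, 8.57 and 8.82. By their brightest probe sets these last genes were lowest in sample 15 and did not stand out in sample 13. Another probe set of Hsp90aa1, with 10.76, 10.84, 10.55 and 10.43, was highest in sample 13 and lowest in sample 17.

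**Figure D1:**
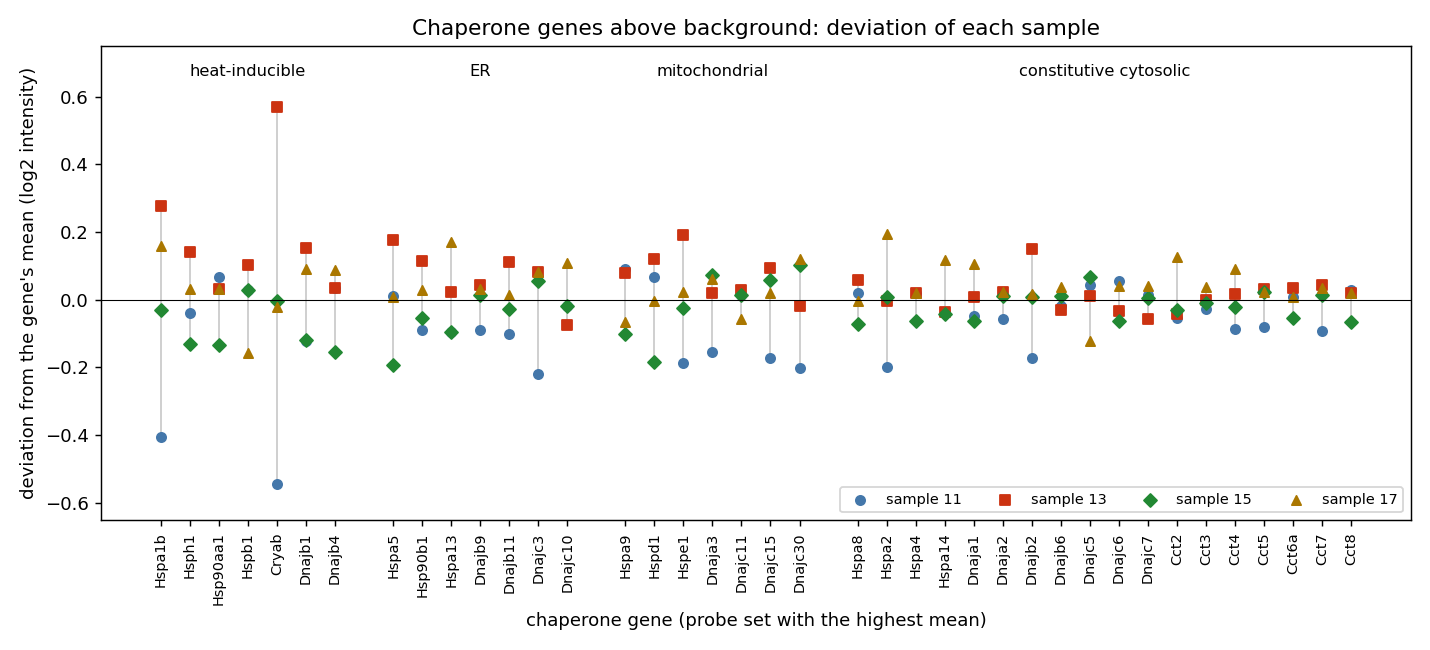
Deviation of each sample from the gene's own mean, on the y axis in log2 intensity, for the chaperone genes above background, by class along the x axis; each point is 1 sample and the grey line spans the 4 samples. Of the 4 classes shown, Cryab and Hspa1b have the widest spans, with sample 13 at the top and sample 11 at the bottom, and 5 of the 7 heat-inducible genes are highest in sample 13.

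The spread over the 4 samples differed between the classes. The median SD was 0.115 for the 7 heat-inducible genes above background and 0.0557 for the 18 constitutive cytosolic genes, with 0.0846 for all 8048 genes above background. All 7 heat-inducible genes had an SD above that of the median gene, against 3 of 18 constitutive genes. The 7 chaperonin subunits are among these 18 constitutive genes, and 1 of them, Cct2, is 1 of the 3. The heat-inducible SDs ran between 0.0904 for Hsp90aa1 and 0.456 for Cryab, and the constitutive ones between 0.0282 for Cct3 and 0.16 for Hspa2. For ER genes the median SD was 0.0912, and for mitochondrial genes 0.12. These are descriptions, since genes of a class are not independent and exactly equal values in at least 2 samples, whose origin is not known, were present in 19 of the 59 members above background. Levels were not matched between the classes either, and the SD to be expected depends on level. Hsph1 (mean 10.52) and Hspb1 (mean 8.09) had similar SDs of 0.115 and 0.111. Their unadjusted p in the limma spread test, described next, was 0.143 and 0.339. An SD above 0.3 was found for 2 of the 59 members (3.39%), Cryab and Hspb8, against 1.28% of all genes above background. Hspb8 passed the background limit only through samples 13, 15 and 17, so its SD rests on a value of 5.95 in sample 11 that was under background.

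**Figure D2:**
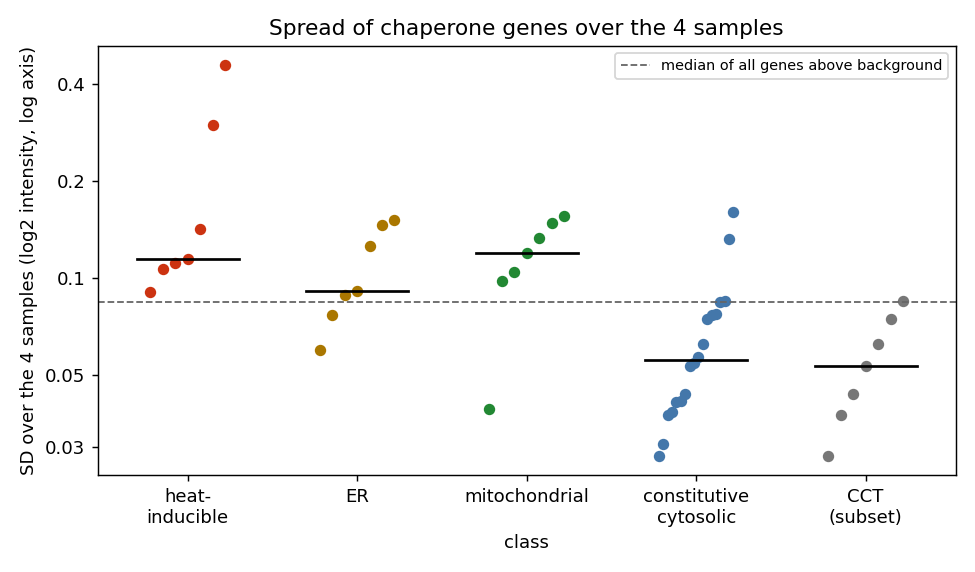
SD of each chaperone gene over the 4 samples, on a log axis in log2 intensity, by class; each point is a gene, the black bar is the class median and the dashed line the median of all genes above background. Every heat-inducible gene lies above the dashed line, while 15 of the 18 constitutive cytosolic genes, chaperonin subunits included, lie under it. The SD also depends on level, which was not matched between the classes.

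No member was called by a test of whether single probe sets varied more than expected for their level. The residual variance was compared with limma's fitted prior over 12869 probe sets above background, and 0% of them passed at an adjusted p of 0.05. The 107 member probe sets were among them, and their smallest unadjusted p was 0.0127. At an unadjusted p under 0.05 there were 11 of the 107 member probe sets and 375 of all 12869. On simulated data this test missed most of the changed probe sets where true variances differed between probe sets. The smallest adjusted p of this limma test over all probe sets was 0.888. Members may therefore differ between samples without being called, and the lack of calls does not show that they were even.

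A second test asked whether the probe sets of a gene showed the same differences between samples, and 2 chaperones passed it, Hspa1b and Cryab. For 2509 genes with at least 2 probe sets above background, the variance between samples was set against the disagreement of the probe sets, with Benjamini-Hochberg adjustment over all of them. It called 21 genes or 0.837% in all, and 2 of 30 members or 6.67%, both heat-inducible. The other 3 heat-inducible genes tested, Hsph1, Hsp90aa1 and Dnajb1, did not pass, nor did any of the 11 constitutive cytosolic, 4 ER and 3 mitochondrial genes tested.

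The other 2 probe sets of Hspa1b had 6.96, 7.76, 7.33 and 7.54, and 6.90, 7.83, 7.27 and 7.54, in samples 11, 13, 15 and 17. All 3 probe sets thus put sample 13 highest, then 17, 15 and 11, with an adjusted p of 0.000708 in this test, whose variances were moderated with limma. Probe sets of 1 gene may share sequence, so they are not independent measurements of it. The second probe set of Cryab above background had 7.81, 8.80, 8.05 and 8.15, with the same extremes as the first (adjusted p 0.0396 with limma's squeezed variances). Hspa1b lost its call without sample 11. Cryab lost its call without any 1 of the 4 samples, without the filter on low values and without squeezing of the variances.

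Hspe1, the mitochondrial co-chaperonin, came closest among the members that did not pass, with an adjusted p of 0.0921. Its probe sets had 9.51, 9.89, 9.67 and 9.72, and 7.68, 8.07, 7.96 and 7.96. Both were highest in sample 13 and lowest in sample 11.

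Some probe sets of the same gene disagreed, and samples 15 and 17 also differed from the other pair in a measure of RNA quality. Samples 11, 13, 15 and 17 had a 3' minus 5' log2 signal of Gapdh of 0.62, 0.62, 2.64 and 3.79; a large value means that little of the 5' end of the transcript was read. Of 107 member probe sets above background, 19 (17.8%) were lower in both samples 15 and 17 than in both samples 11 and 13, against 11.5% of all probe sets above background. The opposite pattern, higher in both samples 15 and 17, was found for 22 (20.6%), against 29.6% of all. By the probe set that describes each gene, 13 genes were higher in both and 4 lower. Among the 14 member probe sets with an SD above 0.3, 8 were lower in both samples 15 and 17 than in both samples 11 and 13. The matching shares of all genes and probe sets are not given for these last counts, so they do not set the members apart.

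A second probe set of Hsph1 had 9.29, 9.40, 8.80 and 8.61 in samples 11, 13, 15 and 17. One of Hsp90aa1 had 11.00, 10.88, 10.32 and 10.33, and 1 of Hspa4l, an Hsp110 relative of testis and brain, had 7.95, 8.06, 7.22 and 7.16. In each of these genes the probe set with the highest mean did not share the drop in both samples. Hspa4 likewise had 8.64, 8.64, 8.56 and 8.64 by its brightest probe set, 7.67, 7.77, 7.18 and 6.88 by another. The remaining probe set above background, with 7.04, 6.85, 7.28 and 7.33, went the other way. The Cct3 probe set with the largest SD, given above, was likewise low in samples 15 and 17. The part of the 3' minus 5' difference in these values was not tested. The beta-actin 3' minus 5' log2 signal was 1.10, 1.25, 1.93 and 2.33 in samples 11, 13, 15 and 17. For Hspa1b and Cryab, samples 11 and 13 were the lowest and the highest, and the part of RNA quality in this was not tested.

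**Figure D3:**
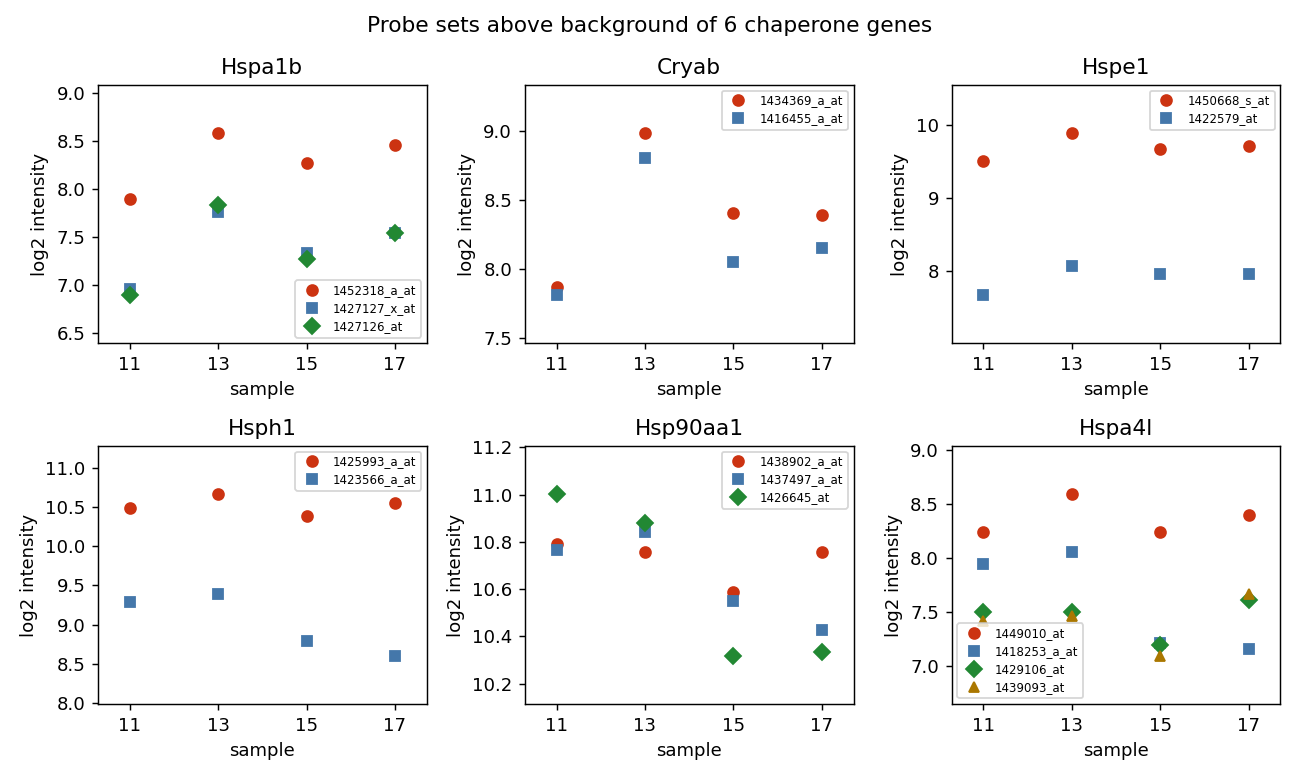
Log2 intensity (y axis) of every probe set above background in samples 11, 13, 15 and 17 (x axis) for 6 chaperone genes; each symbol is a probe set and axes differ between panels. The 3 probe sets of Hspa1b and the 2 of Cryab and of Hspe1 keep the same extremes, whereas Hsph1, Hsp90aa1 and Hspa4l each have a probe set with its low values in samples 15 and 17.

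Heat-inducible members stood higher in sample 13 than constitutive ones did. Over the 7 heat-inducible genes the mean deviation from each gene's own mean was -0.14, 0.19, -0.078 and 0.031 in samples 11, 13, 15 and 17. Over the 18 constitutive cytosolic genes it was -0.038, 0.012, -0.019 and 0.045. All genes above background moved by -0.053, -0.00082, 0.020 and 0.034. In samples 11, 13 and 15 the constitutive genes lay nearer to all genes than the heat-inducible ones did. Their means in samples 13 and 15, 0.012 and -0.019, were nevertheless opposite in sign to those of all genes. The difference between heat-inducible and constitutive genes was -0.10, 0.18, -0.060 and -0.014 in samples 11, 13, 15 and 17. Without Cryab the heat-inducible mean in sample 13 was 0.12. With Hspa8, Dnaja1, Hspd1 and Hspe1 counted as heat-inducible it was 0.15, and its difference from the constitutive genes was 0.14. These means have no test, since genes are not replicates and each sample is a single array. Sample 13 was already known from earlier results of these data to be high for chaperones, so its height here is no independent support.

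Over all 59 members above background, 26 (44.1%) were highest in sample 13, ties counted for each sample, against 22.4% of all genes. In sample 17, 27 members (45.8%) were highest, against 43.2% of all genes. Samples 11 and 15 each held the highest value of 6 members (10.2%), against 12.7% and 31.6% of all genes. The lowest value lay in sample 11 for 32 members (54.2%, against 53.8% of all genes) and in sample 13 for 8 members (13.6%, against 24.5%). Members were thus more often highest in sample 13 and less often in sample 15 than all genes were, a difference that has no test here, and their shares in samples 11 and 17 were near those of all genes. With the Gapdh difference removed by regression the share highest in sample 13 was 45.8% for members and 37.9% for all genes. Of the 7 heat-inducible genes above background 5 were highest in sample 13, as were 7 of 18 constitutive cytosolic, 5 of 7 ER and 4 of 7 mitochondrial genes.

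**Figure D4:**
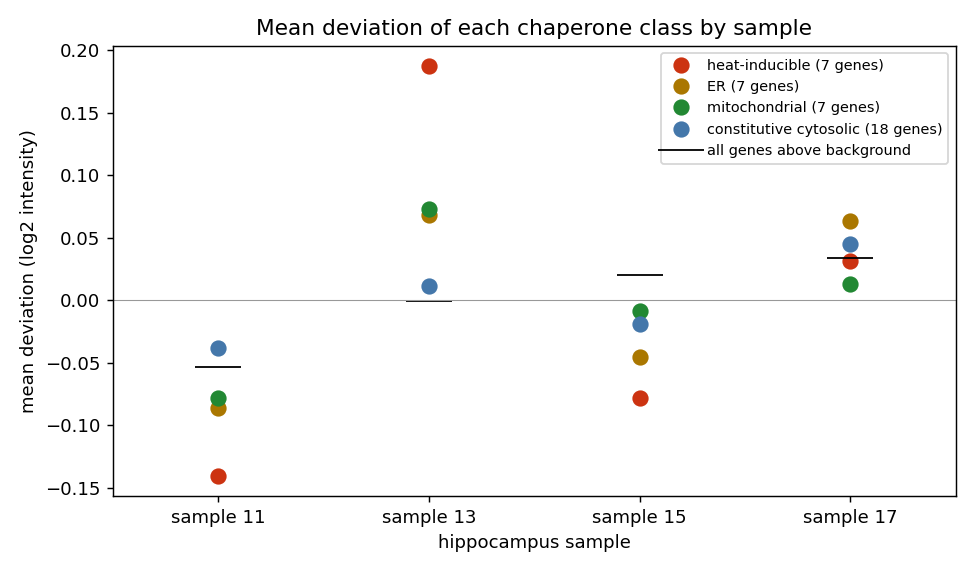
Mean deviation of 4 chaperone classes from their genes' own means (y axis, log2 intensity) in each sample (x axis); coloured points are classes and black bars all genes above background. In sample 13 the heat-inducible genes stand at 0.19 and the constitutive cytosolic genes at 0.012.

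Among ER members, 7 of 8 were above background. Hspa5, known as BiP, the Hsp70 of the ER and sensor of its protein load, had 9.95, 10.11, 9.74 and 9.94 in samples 11, 13, 15 and 17. Hsp90b1, the ER form of Hsp90, had 9.17, 9.37, 9.20 and 9.29. Sample 13 was the highest for both. Dnajc3, an ER co-chaperone, had 6.73, 7.03, 7.01 and 7.03, so sample 11 was apart from the others. Dnajb11 had 8.11, 8.33, 8.19 and 8.23, and Dnajb9 had 8.70, 8.83, 8.80 and 8.82. Both assist Hspa5 and were lowest in sample 11 and highest in sample 13. Hspa13 had 7.66, 7.78, 7.66 and 7.93, and the ER reductase Dnajc10 had 8.34, 8.28, 8.34 and 8.46. These were highest in sample 17 by their brightest probe sets. Other probe sets of Dnajc10 above background had 7.75, 7.64, 7.54 and 7.64, and 6.91, 6.65, 6.69 and 6.68. Both of these were highest in sample 11. Dnajc1, a J-domain protein of the ER membrane, was under background at 6.21, 6.29, 6.21 and 6.22. The mean deviation of the 7 genes was -0.086, 0.068, -0.045 and 0.063. The 3 members with the ER stress response element, Hspa5, Hsp90b1 and Dnajc3, were all highest in sample 13, Dnajc3 in a tie with sample 17. Of the 44 members above background with a window but without this element, 20 were highest in sample 13. The dimmest probe set of Hspa5 had 8.50, 8.28, 8.22 and 8.17 and was highest in sample 11. A link between the element and the levels was not tested.

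Of the genes of the unfolded protein response outside these families, 15 of 18 were above background and 10 were highest in sample 13. Pdia6, a disulphide isomerase, had 8.71, 9.06, 8.77 and 8.68, and the secreted factor Manf had 8.31, 8.68, 8.52 and 8.39. The transcription factor Ddit3, which marks a prolonged response, had 7.29, 7.31, 7.49 and 7.54 and was highest in sample 17. None of the 6 tested for agreement of probe sets passed.

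All 7 measured mitochondrial members were above background. Hspd1, the mitochondrial chaperonin Hsp60, had 10.01, 10.06, 9.76 and 9.94, and Hspa9, the Hsp70 of the matrix, had 9.13, 9.12, 8.94 and 8.98. Both were low in sample 15, for Hspa9 by its brightest probe set only. Its other probe sets above background had 8.30, 8.40, 8.40 and 8.50, and 6.61, 6.61, 6.66 and 6.61. Hspd1 and Hspe1 lie next to each other, yet Hspd1 was nearly level in samples 11 and 13, where Hspe1 had 9.51 and 9.89. Dnaja3, the matrix J-domain protein, had 7.94, 8.11, 8.17 and 8.15, Dnajc15 of the inner membrane had 8.33, 8.60, 8.57 and 8.53, and Dnajc30 had 8.95, 9.14, 9.26 and 9.28. These were lowest in sample 11. Dnajc11 had 7.15, 7.16, 7.15 and 7.07.

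The small heat shock proteins, which hold unfolded proteins without using ATP, were detected only in part. Hspb8, which delivers aggregates to autophagy with the co-chaperone Bag3, had 5.95, 6.73, 6.60 and 6.56, with sample 11 under background. Its other probe sets, both under background, had 5.79, 6.08, 6.08 and 6.08, and 5.68, 5.94, 5.29 and 5.06, so they did not agree on the lowest sample. Hspb11, also a part of the transport machinery of cilia, had 6.40, 6.76, 6.71 and 6.79. Hspb2, Hspb3, Hspb6, Hspb7 and Hspb9, several of them best known from muscle, had means between 3.10 for Hspb9 and 5.12 for Hspb6 and were under background. Hspb2 lies next to Cryab, and its levels of 4.84, 4.51, 4.60 and 4.43 did not follow those of Cryab.

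Cryab is made in oligodendrocytes and astrocytes of mouse brain as well as being heat-inducible, and the myelin genes shared its lowest and highest values over samples 11 and 13 in their mean. All 10 measured myelin genes of 12 listed were above background and highest in sample 13, with mean deviations of -0.24, 0.42, -0.033 and -0.15 in samples 11, 13, 15 and 17. The 9 astrocyte markers above background had deviations of -0.051, -0.018, 0.033 and 0.035, and the 10 neuronal markers -0.012, -0.0048, 0.0041 and 0.012. Within the astrocyte list Gfap, the filament protein of reactive astrocytes, had 9.98, 10.49, 10.25 and 10.44, the same order of samples as Hspa1b. Gfap did not pass the agreement test (adjusted p 0.0516 with limma's squeezed variances). Of the 9 astrocyte markers, 3 were highest in sample 13, ties and Gfap included, and 2 were lowest there. The 5 microglia markers of 8 above background had deviations of -0.19, 0.041, 0.13 and 0.014, lowest in sample 11, and C1qb among them passed the agreement test (adjusted p 0.0491 with limma's squeezed variances). Of 8 choroid plexus genes only Ttr was above background, with 7.36, 9.84, 6.86 and 6.54. The 6 immediate early genes above background, which neuronal activity and handling induce, had deviations of -0.29, 0.21, -0.17 and 0.24. Fewer cells of a type and less RNA per cell cannot be told apart in bulk tissue. Samples 11 and 13 were the lowest and the highest for the myelin list as well as for Cryab and Hspa1b, and the part of cell makeup in the chaperone values was not tested.

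The remaining members with a large spread were J-domain proteins and Hspa4l. Dnajc17, of the spliceosome, had 7.09, 7.17, 7.48 and 7.48, Dnajc16 had 6.46, 6.58, 6.81 and 6.83, and Dnajc21, a ribosome assembly factor, had 6.88, 6.99, 6.96 and 7.27. Dnajc17 and Dnajc16 were higher in samples 15 and 17 than in the other pair. A second probe set of Dnajc16 had 6.61, 6.63, 6.63 and 6.63, with no such step. Hspa4l had 8.24, 8.59, 8.24 and 8.40 by its brightest probe set. The smallest SD among members above background was that of Hspa12a, a distant Hsp70 relative made in brain, with 8.53, 8.53, 8.53 and 8.49, of which the values in samples 11 and 15 are equal. Its second probe set above background had 7.72, 7.63, 7.53 and 7.40 (SD 0.135).

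The 21 members under background included forms known from testis, Dnajb3, Dnajb7, Dnajb8, Dnajb13, Dnajc5b, Dnajc5g, Hspa1l and Cct6b, whose means lay between 2.71 for Hspa1l and 4.45 for Dnajb8. Hspa12b, the endothelial Hsp70 relative, had a mean of 4.47. The others were Dnajc22, Dnajc24, Dnajc25, Dnajc28, Cct8l1, Dnajc1, Hspa1a and the small heat shock proteins Hspb2, Hspb3, Hspb6, Hspb7 and Hspb9.

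Regulators and co-chaperones outside the families were mostly detected, with 22 of 26 measured genes above background and 12 of them highest in sample 13, ties included. Hsf1 itself, Ptges3 and Ppid were not analysed here, and the factor Hsf2 was under background at 3.96 ± 0.15. Ahsa1, which speeds the Hsp90 cycle, had 9.28, 9.64, 9.41 and 9.47 in samples 11, 13, 15 and 17. Chordc1, a heat-inducible Hsp90 partner, had 8.50, 8.71, 8.24 and 8.62, and Bag3 had 7.35, 7.53, 7.21 and 7.48. For these genes sample 13 was the highest. Stip1, which links Hsp70 to Hsp90, had 8.53, 8.93, 8.49 and 8.25. Tcp1, the remaining chaperonin subunit by its older name, had 10.35, 10.38, 10.37 and 10.38 and was as even as its partners. None of the 6 genes of this list tested for agreement of probe sets passed.

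The motif matches divided the members as follows. The 11 members above background with GAANNTTC in their window had mean deviations of -0.13, 0.099, -0.0079 and 0.043 in the 4 samples, and 7 of them were highest in sample 13. For the 36 members above background with a window but no match the values were -0.074, 0.023, -0.013 and 0.064, and 16 of them were highest in sample 13. Members with the 3-unit element numbered 4, of which Hsph1, Hspd1 and Hspe1 were highest in sample 13 and Dnajb6 in sample 17. No window was at hand for Cryab, Hspa8 or Hsp90aa1.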

How the data were processed

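The authors deposited log2 intensities for each probe set; per the submitters' processing notes they used RMA, with no version or settings stated there. RMA corrects background, brings arrays to a common distribution and summarises probes. Per the labels' protocols, total RNA was DNase-treated, amplified and labelled with biotin. The sample medians lay between 4.67 and 4.71, and the number of arrays limits precision. Symbols came from the platform's probe table (34958 probe sets with 1 symbol, 932 with several, 9211 with none); 3 probe sets of Dnajc19 with several symbols were not used, and all 198 member probe sets matched RefSeq by Entrez identifier. P-values of the spread test concern the spread between these arrays. Those of the agreement test measure how far the probe sets of a gene share sample differences on the same arrays, with probe sets treated as replicates.

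The members and gene lists were chosen with earlier results of these data known, and the agreement test had been added in earlier work after its data were seen. The spread test used limma (lmFit, eBayes with trend and robust fit; F with 3 and 2.21 degrees of freedom). It gave 0 calls at first, and simulated data then showed that it could not find planted probe sets. The reason was that the robust fit lowers the prior degrees of freedom of variable probe sets. The largest prior degrees of freedom were therefore used for all, a change made after the data were seen, and the count stayed 0. They were only 2.21, and even Ttr, with an SD of 1.50, was not called. The 0 calls are thus no support for evenness. The agreement test set the mean square between samples over that of the interaction of probe set and sample, moderated with squeezeVar. Both used Benjamini-Hochberg adjustment at 0.05 over all features and were tested on simulated data. Named genes are the members of the heat-inducible, ER, mitochondrial, Hsp70 and Hsp90 groups, the 10 members above background with the largest SD and the 5 with the smallest, and listed genes; other members appear by name, mean or count. Promoter motifs were chosen after the data were seen. The tools were limma 3.58.1 in R 4.3.3 for tests, Python 3.11.15 for promoters, and matplotlib 3.10.9.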

Additional observations from a re-analysis of the deposited data

Results flagged for a closer look

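In 11 of the 59 members above background (18.6%), 1 sample stood apart by Dixon's ratio past its 95% critical value, the gap to the nearest sample over the whole range, against 15.4% of all genes above background. Chance flags about 1 in 20 groups, and 9 of the 11 genes hold equal values in at least 2 samples, which raises the ratio. Sample 17 stood apart upward for Cct2 (ratio 0.8797), Dnajc8 (0.8898) and Hspa14 (0.9653), and downward for Dnajc11 (0.8468) and Hspa12a (0.918). Sample 15 was apart and low for Cct8 (0.9133), Dnajb14 (1) and Hspa4 (1), and sample 11 was apart and low for Cct5 (0.9169), Dnaja2 (0.8544) and Dnajc3 (0.9171). Dnajc3 had the widest gap of these, with 6.73 in sample 11 and at least 7.01 in the other samples, and Dnajb14 had 8.28 in sample 15 and 8.49 elsewhere.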

How the results depend on the processing

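The count of members above background ran between 43 and 60 over 11 alternatives. Printed levels depend on the choice of probe set: with the median of a gene's probe sets 19 levels moved, and Dnajb4 stood at 5.67, Hspa13 at 5.13, Hspa14 at 5.003, Hspa12a at 6.07 and Dnajc3 at 6.14, all under the limit of 6.45 used for the main values, against 8.73, 7.76, 7.53, 8.52 and 6.95. Across 10 alternatives the limma spread test called 0 probe sets, with 50 to 481 at an unadjusted p under 0.05. The heat-inducible mean deviation in sample 13 ran between 0.12 and 0.31, and its difference from the constitutive genes between 0.11 and 0.25, over 13 alternatives each. The constitutive value was 0.058 when each gene was given the median of its probe sets and -0.0072 to 0.027 with 1 sample left out. The agreement test called 76 genes with samples centred on their medians, 13 without a filter on low values, 36 without squeezing, 139 with the Gapdh 3' minus 5' difference removed and 10 without samples 15 and 17, an alternative chosen after seeing the data like the omission of Cryab; with 1 sample left out it called 3 to 9. The cause was not tested. Its member calls were 1 without the filter, 1 without squeezing, 4 with the Gapdh difference removed (Hspa4l and Hspe1 added) and 0 to 1 with 1 sample left out. Members highest in sample 13 numbered 47 (79.7%, against 69.6% of all genes) without samples 15 and 17, where fewer samples compete. With 1 sample left out they numbered 26 to 38. Their share was then 47.5% without sample 11, 44.8% without 15 and 64.4% without 17, against 27.3%, 33.3% and 36.1% of all genes. With the median of the probe sets they numbered 18 of 43 (41.9%, against 24.9%). They numbered 20 (33.9%, against 17.8%) with samples centred on their medians and 22 (37.3%, against 17.5%) with quantile normalization repeated. No value in sample 13 exists without that sample. No paired analysis was possible because the samples form a single group.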
